A study of Mus musculus with 6 samples.

Results

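The defensin genes examined here are the beta-defensins, with symbols of the form Defb plus a number, and the alpha-defensins, with symbols that begin with Defa. A gene counted as a member when the array held a probe set annotated to that single symbol, and 42 of the 19938 genes tested met this rule, of which 40 were beta-defensins and 2 were alpha-defensins (Defa24 and Defa39). Each member had 1 probe set. RefSeq lists 71 protein-coding mouse genes under such symbols, of which 41 were members, 15 were present only on probe sets shared by several genes and 15 were on no annotated probe set. The remaining member, Defb44-ps, is a transcribed pseudogene.

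RNA was measured in isolated epithelial cells of the small intestine of mouse embryos at E18.5, shortly before birth. Affymetrix Mouse Gene 1.0 arrays, which sum probes along a transcript, were hybridised with control RNA (3 arrays) or with RNA from Gata4Gata6 conditional knockout (cKO) animals, in which both GATA4 and GATA6 were to be removed (3 arrays). The series compares expression in this epithelium with and without these GATA-binding transcription factors. The labels state neither the strain nor the Cre line, nor which exons were deleted, nor the genotype of the controls. The labels do not say either that each array held a separate animal. The p-values set the difference between groups against the spread within them. That spread may be technical, so the p-values may not speak for animals.

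Defensins are small cationic peptides held together by disulfide bonds, which kill microbes mainly by disrupting their membranes. In the adult mouse gut the alpha-defensins, or cryptdins, are stored in the granules of Paneth cells. The metalloproteinase MMP7 cuts them to their active form. Whether Paneth cells were present at E18.5 was not tested here, so the Paneth lists below name genes, not cells. Beta-defensins are made by many epithelia, and a large part of the mouse family is known mainly from the male reproductive tract, where some members bind sperm.

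Levels are the deposited values on a log2 scale. Array medians lay between 7.73 and 7.84, and the number of arrays limits the precision. A change is the mean of the 3 arrays labelled cKO minus that of the 3 control arrays, on the log2 scale and with its SE. Adjusted p-values come from limma, by the Benjamini-Hochberg method over all 19938 genes, and a gene passed at 0.05. Neither targeted gene was reduced where the label says cKO. Gata4 stood at 10.95, 10.93 and 10.96 on the controls and at 11.34, 11.39 and 11.51 on the arrays labelled cKO, and Gata6 changed by 0.45 ± 0.065 (adjusted p = 0.0067), so every direction below rests on the labels. The 10 epithelial markers averaged 11.94 to 11.96 on the controls and 12.07 to 12.22 on the arrays labelled cKO, and 3 of them passed as higher (Epcam, Krt8 and Krt19). The array cKO 2 stood apart. Its summed linear level (2 to the power of each log2 value, added over a list) was 91450 over 11 hepatocyte genes, against 8293 to 37810 on the controls and at most 15270 on cKO 1 and cKO 3. It was 18090 over 10 neutrophil genes, against 1266 to 4268 and at most 1223. Other arrays differed as well. The hepatocyte sum was 37810 on control 3 and 8293 on control 2, and the sum over 11 mesenchyme and smooth muscle genes was highest on cKO 1, at 8139. Values that rest on cKO 2 are also given without it.

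On the arrays labelled cKO, 6 of the 42 defensin genes passed the test, 3 as higher and 3 as lower. Over all genes 12.9% passed the test, 5.52% as higher and 7.42% as lower, so the number of defensin genes called was near the background. The 3 rises were Defb37, Defb40 and Defb39, which lie close together on chromosome 8. The falls were those of Defa24 and Defa39, the only alpha-defensin members, and of the beta-defensin Defb28. The median change over the 42 genes was −0.06, against −0.01 over all genes tested. The 2 groups did not overlap for 10 of the 42 genes, where this held for 32.6% of all genes. RNA of a whole cell preparation was measured, so fewer cells of a type and less RNA per cell cannot be told apart.

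**Figure D1:**
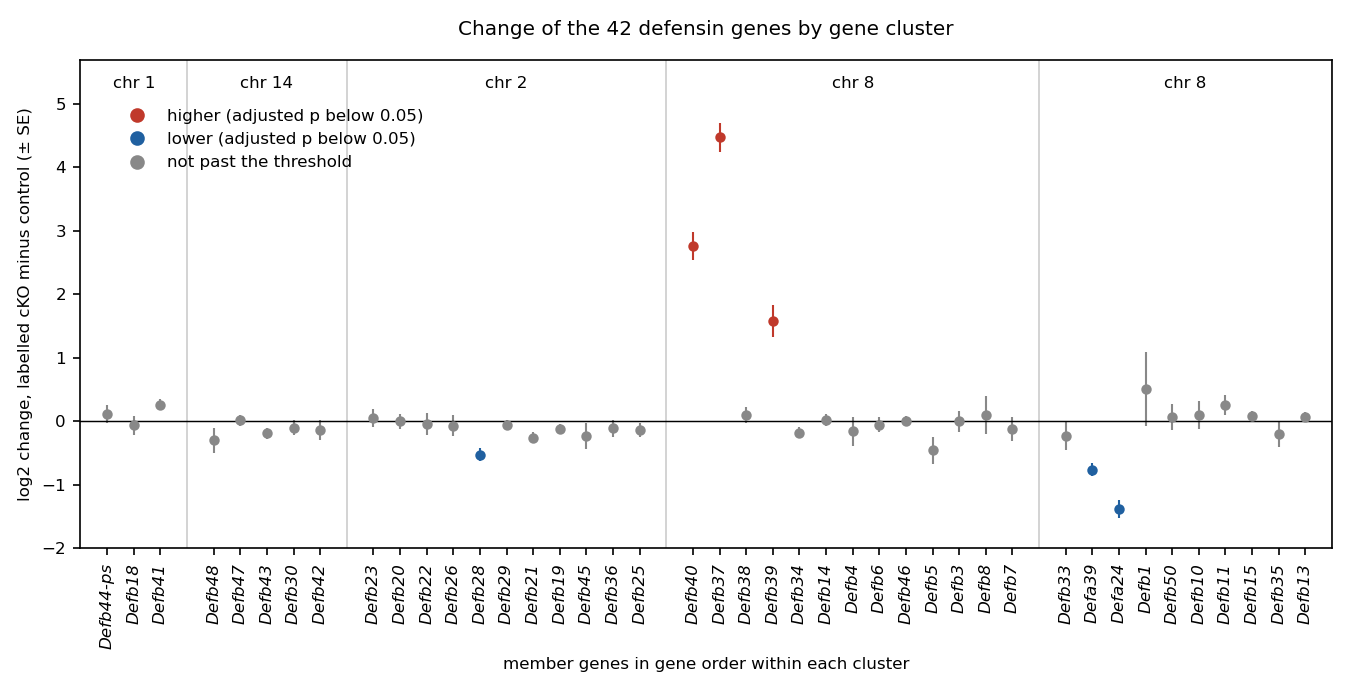
Log2 change (arrays labelled cKO minus control, ± SE, 3 arrays in each group) of the 42 defensin genes, ordered by position within 5 gene clusters and coloured by the limma call at an adjusted p of 0.05. Defb40, Defb37 and Defb39 stand between 1.58 and 4.47 in a cluster whose other genes lie between −0.46 and 0.10, while Defa39, Defa24 and Defb28 lie below 0.

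Defb37 showed the largest change of the family. This beta-defensin gene stood at 5.95, 5.82 and 5.45 on the control arrays and at 9.79, 10.60 and 10.25 on the arrays labelled cKO. The groups were far apart, with the lowest array labelled cKO above the highest control. The change was 4.47 ± 0.23 (22.2-fold, 95% interval 3.93 to 5.02, adjusted p = 0.000206), and 5 of the 1101 genes that rose, Defb37 included, changed by at least as much. Without cKO 2 the change was 4.28 (adjusted p = 0.000214).

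Defb40, the gene next to Defb37 on one side, rose as well. Its level was 5.06, 4.99 and 5.17 on the controls and 7.46, 8.35 and 7.69 on the arrays labelled cKO. It changed by 2.76 ± 0.22 (6.77-fold, adjusted p = 0.000845). Defb39 lies beyond Defb38 on the other side. It stood at 6.24, 5.87 and 5.42 on the controls and at 7.07, 7.75 and 7.44 on the arrays labelled cKO. Its change was 1.58 ± 0.25 (2.98-fold, adjusted p = 0.00983). Neither gene's groups overlapped. For all 3 genes cKO 2 was the highest array labelled cKO and cKO 1 the lowest. Whether the probe sets of these related genes also bind each other's RNA was not tested, so the 3 rises may not be independent measurements. Without cKO 2 the changes were 2.50 for Defb40 (adjusted p = 0.000189) and 1.41 for Defb39 (adjusted p = 0.0172).

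Defb38, which lies between Defb37 and Defb39, did not pass the test. Its level was 4.63, 4.61 and 4.29 on the controls and 4.57, 4.77 and 4.48 on the arrays labelled cKO, so the groups overlapped. The change was 0.10 ± 0.13, with a 95% interval of −0.21 to 0.40 (adjusted p = 0.693). No detection calls were used, so it is not known whether this probe set was above background.

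**Figure D2:**
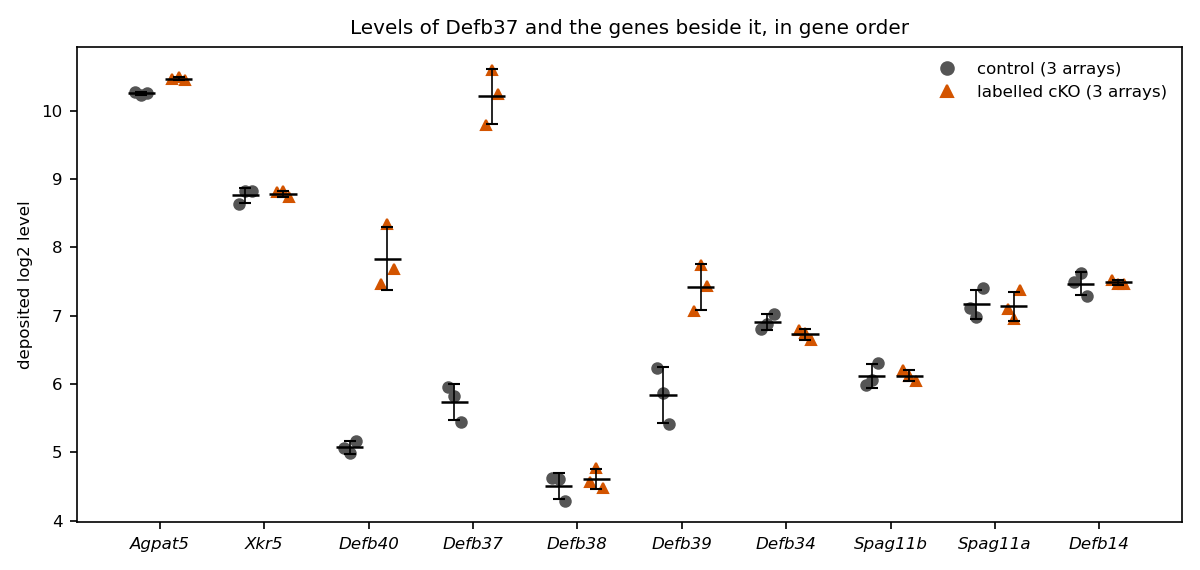
Deposited log2 level of Defb37 and of tested genes beside it, in gene order, with 1 point per array (circles for control, triangles for labelled cKO) and bars for the mean ± SD of 3 arrays; levels can be compared within a gene, not between genes. The triangles lie above the circles with no overlap for Defb40, Defb37, Defb39 and, by a small step, Agpat5, and below them for Defb34, while those of Defb38, Xkr5, Spag11b, Spag11a and Defb14 overlap the circles.

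The promoters of Defb38 and Defb39, neighbours of which only Defb39 passed the test, are shown because their sequences are alike. The sequences are the 250 bases before the annotated start, from RefSeq on GRCm38.p6, and both genes are on the minus strand (chr8:19026569-19026818 for Defb38, chr8:19064922-19065171 for Defb39). Capitals mark the GATA motif, searched on both strands only in the forms AGATAA and TGATAA. The lower-case letters also hold ggataa in Defb38 and ggatac in Defb39, forms that were not searched.
Defb38: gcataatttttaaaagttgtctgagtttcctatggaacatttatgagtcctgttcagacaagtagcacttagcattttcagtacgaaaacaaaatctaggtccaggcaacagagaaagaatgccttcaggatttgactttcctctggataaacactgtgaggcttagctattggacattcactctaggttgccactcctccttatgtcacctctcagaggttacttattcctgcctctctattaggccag
Defb39: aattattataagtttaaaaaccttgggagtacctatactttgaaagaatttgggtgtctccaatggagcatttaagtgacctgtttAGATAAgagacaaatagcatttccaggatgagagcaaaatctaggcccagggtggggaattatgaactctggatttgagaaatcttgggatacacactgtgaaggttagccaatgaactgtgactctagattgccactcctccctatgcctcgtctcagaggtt
Over the 300 bases given for each gene, 250 before and 50 after the start, the best local alignment paired 265 bases, of which 195 (73.6%) were identical. Defb39 holds AGATAA at 164 to 159 bases before its start, and the aligned letters of Defb38 read AGACAA. Of 32851 promoters of this length 16.6% hold either form of the motif. A promoter was matched for 28 members, and not for Defb37, Defb40, Defa24 or Defa39. Only 2 of the 28 passed the test, Defb39 with the motif and Defb28 without it. In all 7 of the 28 hold the motif, and these include Defb5, Defb6, Defb7 and Defb8, which did not pass the test. A match in these letters is a description of the sequence and does not show binding.

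Defb37 was set against the 5 nearest tested genes on each side, which were Mcph1, Angpt2, Agpat5, Xkr5 and Defb40 on one side and Defb38, Defb39, Defb34, Spag11b and Spag11a on the other. Its level minus the mean level of these 10 genes was −1.37 ± 0.24 (SD, n = 3) on the controls and 2.60 ± 0.31 on the arrays labelled cKO. The change of Defb37 thus exceeded the mean change of its neighbours by 3.97. The exact two-sided permutation test gave p = 0.1, the smallest value that 3 arrays against 3 allow. Against its defensin neighbours alone (6 genes) the excess was 3.79.

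The sizes of the 3 rises were set against each other as a description. The fitted change of Defb37 exceeded that of Defb40 by 1.71 and that of Defb39 by 2.90, and the change of Defb40 exceeded that of Defb39 by 1.18. Set against Defb38, the excess was 4.38 for Defb37, 2.66 for Defb40 and 1.48 for Defb39. In each of these 6 comparisons the 3 arrays labelled cKO lay above the 3 controls, and each exact permutation test gave its smallest p, 0.1. Over all 10 such comparisons of paired genes or neighbours computed here the adjusted p was 0.1 as well, so none could pass.

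None of the 6 flanking genes that are not defensins passed the test. Agpat5, an acyltransferase of lipid synthesis, changed by 0.21 ± 0.064 (adjusted p = 0.0889), its groups did not overlap, and it passed when genes with a mean under 7.495 were left out of the test (adjusted p = 0.0479). Angpt2, an angiopoietin of blood vessels, changed by 0.29 (adjusted p = 0.0605), also with no overlap. Mcph1, a regulator of chromosome condensation, changed by 0.24 (adjusted p = 0.397) and Xkr5 by 0.03 (adjusted p = 0.878). Spag11a and Spag11b, sperm-associated genes with a beta-defensin-like product, changed by −0.03 (adjusted p = 0.936) and 0.01 (adjusted p = 0.98).

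The remaining genes of this cluster did not pass the test. The cluster runs from Defb40 to Defb7 and has 13 members, and besides the 3 rises the changes lay between −0.46 for Defb5 and 0.10 for Defb38. Defb34, the next tested defensin after Defb39, stood at 6.81, 6.88 and 7.03 on the controls and at 6.79, 6.75 and 6.64 on the arrays labelled cKO. Its groups did not overlap, but the change was −0.18 ± 0.088 (adjusted p = 0.261). Defb14, Defb3 and Defb4, the mouse genes often compared with the inducible human beta-defensins, changed by 0.02, −0.003 and −0.16, with adjusted p of 0.928, 0.993 and 0.716. Defb12 was measured only by a probe set shared with Defb35, which changed by −0.02 (adjusted p = 0.914).

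Because many beta-defensins are products of the male tract, 8 marker genes of that epithelium were read on the same arrays. Under limma 0 of the 8 passed, 0 had an unadjusted p under 0.05, and the median change was −0.03. Their summed linear level was 650.5 to 749.8 on the controls and 661.6 to 702.8 on the arrays labelled cKO. These 8 genes averaged 6.0 to 6.3 on each array, under 7.495, the limit used in a filter on dim genes. The absence of a call therefore does not show whether such cells were present. Of 10 squamous epithelial markers 1 rose (Krt14, a basal keratin, by 0.48), and the summed levels were 1503 to 1627 and 1484 to 1618. Of 5 mesothelial markers 3 rose (Msln, Lrrn4 and Upk1b) and 1 fell (Upk3b), with summed levels of 1694 to 2549 and 1546 to 1720. Of 11 mesenchyme and smooth muscle markers 0 passed under limma, 7 had an unadjusted p under 0.05, and the summed level was 2667 to 3509 on the controls and 3688 to 8139 on the arrays labelled cKO. None of these markers was at 0 on any array. The part of the mesothelial and mesenchymal differences in the rise of the 3 genes was not tested.

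Both alpha-defensin members fell. Defa24, a cryptdin gene, stood at 11.22, 10.93 and 10.74 on the control arrays and at 9.69, 9.44 and 9.60 on the arrays labelled cKO. The groups did not overlap, and the change was −1.39 ± 0.14 (adjusted p = 0.00176), or −1.32 without cKO 2. Defa39 belongs to the cryptdin-related sequences, a branch of the family. It stood at 8.32, 8.24 and 8.24 on the controls and at 7.65, 7.58 and 7.29 on the arrays labelled cKO, with no overlap. Its change was −0.76 ± 0.11 (1.69-fold lower, adjusted p = 0.00675), or −0.80 without cKO 2 (adjusted p = 0.0116). The change of Defa24 was 0.63 log2 units further below 0 than that of Defa39, and the exact permutation p of this difference was 0.1, the smallest possible.

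Near-identical alpha-defensin genes share probe sets, and 6 probe sets carried 15 alpha-defensin symbols between them. These lie outside the rule for members and were tested in a fit of all 23410 probe sets with a gene, of which 11.7% passed and 6.75% were lower. All 6 were lower on the arrays labelled cKO, with changes of −1.21 to −1.14 and adjusted p of 0.0016 to 0.00405. The probe set 10570663, annotated to 8 symbols that include Defa3, Defa17 and Defa-ps1, stood at 10.80, 10.69 and 10.46 on the controls and at 9.57, 9.36 and 9.40 on the arrays labelled cKO. The probe set 10570651, annotated to Defa21, Defa22, Defa23 and Defa31, stood at 10.45, 10.34 and 9.99 and at 9.12, 9.06 and 9.14. On all 6 probe sets and for Defa24, control 1 was the highest and control 3 the lowest control. The 6 share genes and sequence, so they are not independent measurements, and none can be assigned to a single gene.

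**Figure D3:**
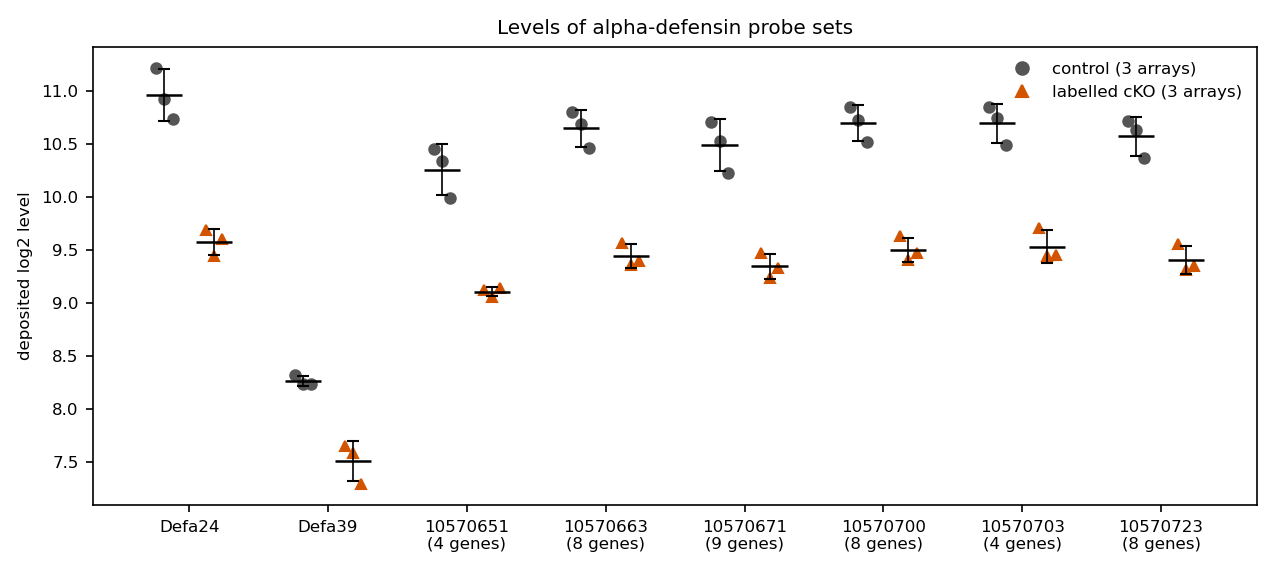
Deposited log2 level on alpha-defensin probe sets, with 1 point per array (circles for control, triangles for labelled cKO) and bars for the mean ± SD of 3 arrays; probe sets shared by several genes are named by their number. On all 8 probe sets the triangles lie below the circles with no overlap.

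Mouse neutrophils, unlike human ones, make no alpha-defensins. Their markers were highest on cKO 2, and under limma 0 of 10 passed with 0 at an unadjusted p under 0.05. Defa24 stood at 9.44 on cKO 2 and at 9.69 and 9.60 on cKO 1 and cKO 3. Exocrine pancreatic markers had a summed level of 1826 to 15240 on the controls and 5657 to 13390 on the arrays labelled cKO, with 0 of 7 passing and 0 at an unadjusted p under 0.05. Control 3 was lowest and control 1 highest for these markers, which is also the order of Defa24 and the 6 shared probe sets among the controls. For Defa39 control 2 and control 3 were tied. Among the arrays labelled cKO the pancreatic markers were lowest on cKO 3, at 5657 against 13390 on cKO 1 and 11190 on cKO 2. Defa39 was also lowest on cKO 3, but Defa24 and the 6 shared probe sets were lowest on cKO 2. The part of the neutrophil and pancreatic markers in the alpha-defensin values was not tested.

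Defb28, one of 11 members of the cluster on chromosome 2, was the only beta-defensin that fell. It stood at 6.55, 6.25 and 6.48 on the controls and at 5.91, 5.80 and 5.99 on the arrays labelled cKO, and its change was −0.53 ± 0.10 (1.44-fold lower, adjusted p = 0.0221). The call was lost when any array but control 2 was left out, with an adjusted p of 0.0501 without cKO 3, 0.0517 without cKO 2, 0.0598 without cKO 1, 0.0713 without control 1 and 0.084 without control 3. The other 10 genes of this cluster changed by −0.26 to 0.05 and did not pass. Defb21, whose level was 7.66, 7.66 and 7.69 on the controls and 7.32, 7.34 and 7.58 on the arrays labelled cKO, had an adjusted p of 0.132.

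Defb1, the constitutive beta-defensin of kidney and other epithelia, had its only high value on cKO 2. Its level was 6.10, 6.45 and 6.06 on the controls and 6.07, 8.17 and 5.91 on the arrays labelled cKO, so the groups overlapped. The change was 0.51 ± 0.59 (adjusted p = 0.642), and without cKO 2 it was −0.21 (adjusted p = 0.442). The hepatocyte, erythroid, immune, neutrophil and endothelial lists were also highest on that array, and their part in the Defb1 value was not tested.

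The other members gave small differences. The cluster on chromosome 14 has 5 members with changes of −0.30 to 0.01, and that on chromosome 1 has 3, Defb44-ps, Defb18 and Defb41, with changes of −0.06 to 0.26. Defb41 had the smallest adjusted p of these 8 genes, 0.116, and its groups did not overlap (4.88, 4.82 and 5.04 against 5.22, 5.21 and 5.09). In the cluster on chromosome 8 that runs from Defb33 to Defb13 and holds the alpha-defensins, the 8 beta-defensins changed by −0.23 to 0.51, with Defb1 at the upper end. Of the 36 members that did not pass, 34 changed by at most 0.3 in either direction. Defb45, Defb15 and Defb35, which by mean over the arrays were the highest of these, changed by −0.23, 0.08 and −0.20, with adjusted p of 0.546, 0.638 and 0.585. Defb45 stood at 8.70, 8.26 and 8.46 and at 7.86, 8.61 and 8.26, Defb15 at 7.72, 7.92 and 7.96 and at 7.95, 7.92 and 7.96, and Defb35 at 7.86, 7.92 and 8.20 and at 7.42, 8.16 and 7.8. The groups of all 3 overlapped.

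Most members were dim. By mean over the 6 arrays, 30 of the 42 lay under 7.495, the limit used in a filter on dim genes, among them Defb40, Defb39 and Defb28, and 27 of the 36 that did not pass. Defb37 lay under that limit on every control array and above it on every array labelled cKO. A probe set's level depends on its probes, so a low value shows neither absence nor presence of the RNA. With 32 added to each linear value before taking log2, the changes of Defb37, Defb40 and Defb39 were 3.83, 1.99 and 1.18. A pair of defensin-like genes listed under other symbols, named after their values were seen, changed by −0.20 (Gm6040, adjusted p = 0.293) and −0.13 (AY761185, adjusted p = 0.553).

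A list chosen for alpha-defensin processing and storage, which also takes in convertase, folding and granule-release genes, held calls in both directions. Of its 13 measured genes, 2 rose and 2 fell (median change 0.12). Whether the called genes act on defensins in these cells was not tested. The 13 include the trypsin genes Prss2, Try4 and Try5, named after their values were seen, which did not pass. Like the exocrine pancreatic markers, they were lowest on control 3 among the controls and on cKO 3 among the arrays labelled cKO. The part of pancreatic RNA in their values was not tested. Mmp7, the protease that activates mouse alpha-defensins, stood at 7.96, 8 and 7.14 on the controls and at 7.97, 7.63 and 7.85 on the arrays labelled cKO, and its change was 0.12 ± 0.24 (adjusted p = 0.811), or −0.16 without control 3 (adjusted p = 0.515). Rab27a, a GTPase of granule release, rose by 1.22 ± 0.11 (adjusted p = 0.00133), and the proprotein convertase gene Pcsk7 by 0.44. Pcsk5, another convertase, fell by 0.58 ± 0.10 (adjusted p = 0.0143), and P4hb, a disulfide isomerase of the endoplasmic reticulum, fell by 0.59 ± 0.11 (adjusted p = 0.0144). The count of rises was 1 when any array but cKO 2 was left out, and the Pcsk7 call was lost there. The count of falls was 1 without control 2, control 3 or cKO 3, where the P4hb call was lost.

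Of 10 genes measured in a list of other Paneth cell products, 1 rose and 0 fell under limma (median change 0.12). An unadjusted p under 0.05 was found for 1. The list is not specific to Paneth cells, since Lyz2 is also among the immune markers. Whether this list and the alpha-defensins differ was not tested. Ang4, a microbicidal ribonuclease, stood at 8.41, 8.55 and 8.42 on the controls and at 8.39, 8.58 and 8.64 on the arrays labelled cKO (adjusted p = 0.667). Pla2g2a, a secreted phospholipase, changed by −0.21 (adjusted p = 0.19) and Lyz1, Paneth cell lysozyme, by 0.30 ± 0.85 (adjusted p = 0.868). Lyz1 was at 10.56 on cKO 2 and at 7.58 and 7.27 on cKO 1 and cKO 3, and Lyz2, the macrophage lysozyme, was at 11.42 on cKO 2 and at 8.06 and 7.41. Without cKO 2 both turned negative, to −0.75 for Lyz1 (adjusted p = 0.146) and −0.54 for Lyz2 (adjusted p = 0.538). The gene that rose was Nupr1, a stress-response factor (0.92 ± 0.17, adjusted p = 0.0176), and leaving out control 2, cKO 1 or cKO 3 ended that call.

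Of 27 other antimicrobial proteins of epithelia, 6 rose and 2 fell (median change 0.29). With genes under the stricter limit on dim genes (8.2133) left out of the test, 3 rose. Every control value of Reg3b lies under that limit, so Reg3b stayed in the test only through its high arrays. Ccl20, named after its values were seen, also had a control mean under it, at 8.16. The filter therefore says nothing about the calls of Reg3b and Ccl20. Reg3b, a bactericidal lectin, stood at 7.55, 7.64 and 7.92 on the controls and at 12.13, 12.65 and 12.47 on the arrays labelled cKO (4.71 ± 0.16, adjusted p = 6.59e-05), while its relative Reg3g did not pass (0.87 ± 0.32, adjusted p = 0.145). Wfdc18, a whey acidic protein, rose by 1.30 ± 0.14 (adjusted p = 0.00266). Reg1, a lectin of the same family as Reg3b, fell by 2.87 ± 0.20 (adjusted p = 0.000518) and Zg16, a lectin of goblet cell granules, by 2.26 ± 0.21 (adjusted p = 0.00138). Camp, the cathelicidin gene, changed by 0.57 ± 0.72 (adjusted p = 0.681), with 10 on cKO 2 and at most 7.85 on the other 5 arrays. Without cKO 2 its change was −0.34 (adjusted p = 0.194).

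Of 6 receptors of defensins and defensin-like genes, Spag11a and Spag11b among them, 0 passed under limma and 0 had an unadjusted p under 0.05. Ccr6, the chemokine receptor that some beta-defensins bind, stood at 6.96, 6.80 and 6.70 on the controls and at 6.84, 6.92 and 6.70 on the arrays labelled cKO, with a 95% interval of the change of −0.24 to 0.24.

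Of 19 sensors and signalling genes that act before defensins, 6 fell and 1 rose (median change −0.12). Over all genes falls were also more frequent, 7.42% against 5.52%. Irf1, an interferon-response factor, fell by 1.01 ± 0.086 (adjusted p = 0.000993), or by 0.59 when all its single-gene probe sets were averaged (adjusted p = 0.00354). Ticam1, an adaptor of Toll-like receptors, fell by 0.79 ± 0.10 (adjusted p = 0.00412) and Tnfrsf1a, a receptor of tumour necrosis factor, by 0.70 ± 0.11 (adjusted p = 0.00885). The bacterial peptidoglycan sensors went apart, with Nod1 higher by 0.75 ± 0.10 (adjusted p = 0.0057) and Nod2, a sensor known to act in Paneth cells, lower by 0.55 on the log2 scale (−0.55 ± 0.11, adjusted p = 0.0219). The Nod2 call was lost without control 1, control 2, cKO 1 or cKO 3, and the count of falls was 3 without cKO 3.

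Of 18 transcription factors and signals of the Paneth and secretory lineage, 8 rose and 1 fell (median change 0.45). Over all genes 5.52% passed as higher and 7.42% as lower. Foxa3, a forkhead factor of goblet cells, rose by 1.11 ± 0.11 (adjusted p = 0.00175), Creb3l1, a membrane-bound factor of secretory cells, by 1.76 ± 0.18 (adjusted p = 0.00186), Spdef, which drives goblet and Paneth cell maturation, by 1.36 ± 0.14 (adjusted p = 0.00208) and Atoh1, the secretory fate determinant, by 1.17 ± 0.15 (adjusted p = 0.0041). Sox9, which is needed for Paneth cells, rose by 1.12 ± 0.21 (adjusted p = 0.0193), and its adjusted p was above 0.05 when control 2, cKO 1 or cKO 3 was left out. Tcf7l2, the Wnt effector that acts on cryptdin promoters, changed by 0.01 ± 0.11 (adjusted p = 0.957). Ephb3 and Fzd5, named after their values were seen, went the other way from the rises. Ephb3 was the single fall (−0.33 ± 0.065, adjusted p = 0.0204). The groups of Fzd5 did not overlap, but its decrease (−0.57 ± 0.16) missed the threshold, with an adjusted p of 0.066. The count of rises was 4 without control 2 and 5 without cKO 3, and the single fall was lost when any array but cKO 2 was left out.

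**Figure D4:**
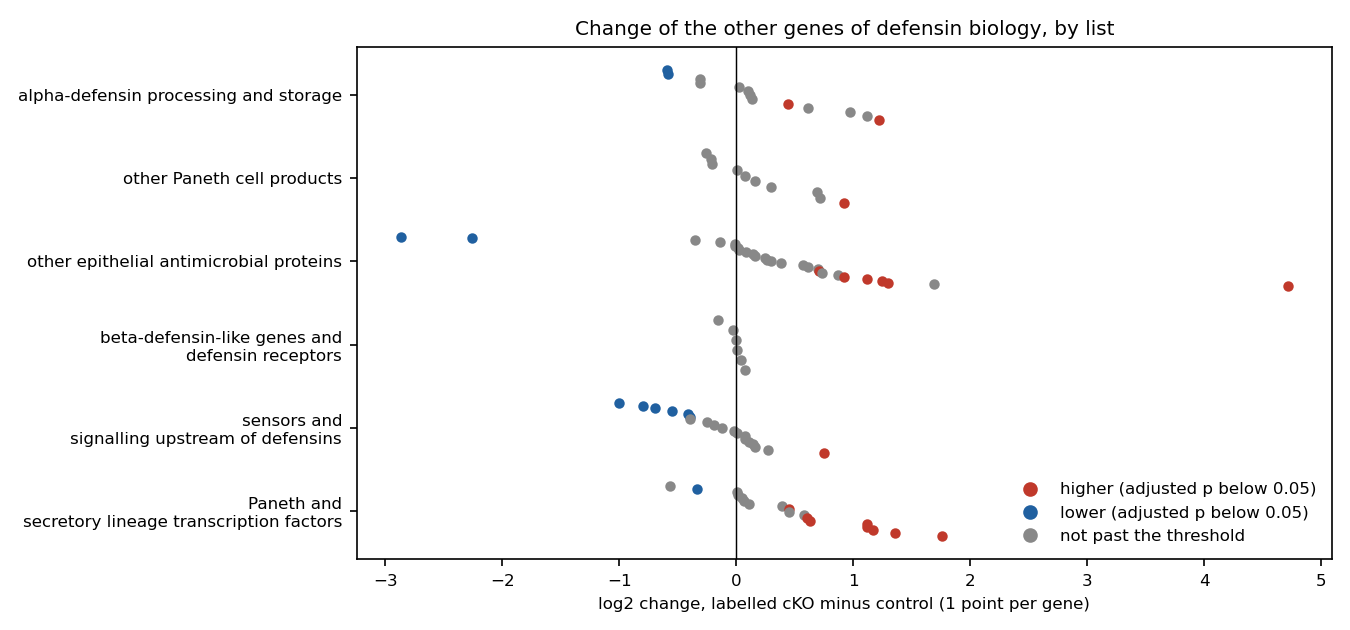
Log2 change (arrays labelled cKO minus control) of each measured gene in 6 lists of other genes of defensin biology, 1 point per gene, coloured by the limma call at an adjusted p of 0.05. The 18 lineage factors include 8 rises and 1 fall, the 19 sensors and signalling genes 6 falls and 1 rise, and the 6 receptors and defensin-like genes no call.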

How the data were processed

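The deposited values are 1 log2 level per probe set (35512) and array, made by the authors with dChip per the series text. Its version, background correction and normalization: not given in the sources used here. That the scale is log2 was inferred from the range, 0 to 14.25, and centring is unknown. No member was at 0.

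Genes were named from the platform annotation (21789 probe sets with 1 gene, 1621 with several, 12102 with none). The gene-level test used only the former, with the highest-mean probe set per gene. Probe sets with several genes were tested in a separate fit of all 23410 probe sets with a gene. Gene order came from RefSeq (GRCm38.p6), where all 42 member symbols matched by gene ID.

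Groups came from the source names. Levels were compared with limma 3.58.1 (R 4.3.3) without further normalization, filter or covariate. No 2 arrays held identical values. In a simulation over the same 19938 genes, 50 genes were changed at each size, with independent noise for each gene. Of true changes of 0.5, 1, 2 and 4 (log2), 26%, 74%, 90% and 100% were recovered, and 5.23% of 153 calls were false. Far more genes passed in the data and some moved together, so these rates may not hold there. Promoters were aligned with Biopython 1.88.

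Members, lists and alternatives were chosen with earlier results of these data known. All members are accounted for. Values on every array are given for those past the threshold, the 6 with the highest mean, those changed by at least 0.5 and the neighbours of Defb37. From each list up to 4 genes past the threshold are named, with a set named whether changed or not (Mmp7, Ccr6 and Tcf7l2 among them). Alternatives were other normalizations, a floor, filters on dim genes (by mean level, at 7.495 and at a stricter limit), other variance models, weighted arrays, a replicate block, other probe set rules and arrays left out.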

Additional observations from a re-analysis of the deposited data

How the results depend on the processing

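Defb37, Defb40, Defb39, Defa24 and Defa39 kept their direction and call under every alternative in which they were tested, the filters on dim genes set aside for Defb37. The change of Defb37 ran from 3.83 to 4.69 (highest adjusted p = 0.00559), and the Defb39 adjusted p reached 0.0451. A filter on dim genes removed members from the test. With genes of a mean under 7.495 left out 3 defensin genes passed (Defb37, Defa24 and Defa39). Every control value of Defb37 lies under that limit, so it stayed in the test only through its high arrays and this filter says nothing about its call. Under the stricter limit 1 gene passed (Defa24), since the other 2 were then not tested. The defensin count was otherwise 5 or 6, also with 1 array left out, where Defb5 passed in place of Defb28 without cKO 1. All 6 shared alpha-defensin probe sets passed under every alternative. The excess of Defb37 over its neighbours was 3.46 with 32 added to each linear value, which lowers changes of dim probe sets, and 3.71 to 4.14 under the others. Over all genes 2580 passed, and 1482 to 2281 with 1 array left out, the fewest without control 2. Without control 3 and cKO 2 together 1586 passed. Of the list genes 29 passed, and 17 to 28 with 1 array left out, the fewest without control 2 or without cKO 3. Arrays of the groups share replicate numbers, which the labels do not say are pairs and which were not taken to pair them. Deviations of same-numbered arrays had correlations of −0.02, −0.43 and −0.18 across genes. Those of differently numbered arrays ran from −0.30 to 0.36. With 3 arrays in each group such correlations cannot settle whether arrays were paired. With a replicate block 1449 genes and 18 list genes passed, and the defensin count stayed at 6. Fits with arrays left out had fewer arrays, and the replicate block left fewer residual degrees of freedom. The cause of the differences in counts was not tested. No detection calls were used here, so dim members cannot be told from background.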
